A study of Mus musculus with 92 samples.

Results

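The S100 genes described here are S100a1, S100a4, S100a6, S100a10, S100a11, S100a13, S100a14, S100a16 and S100g, found by their gene names in the 4 count tables. They are 9 of the 54532 genes in those tables and 9 of the 18 genes there with an S100 name, not counting S100pbp. The 9 names were selected on measured results of these libraries, and which values were used is not recorded, so the fold changes and adjusted p-values below describe where each gene stood in a fit across all genes and are no independent support for a pattern. The study deleted Eif4g2, which encodes a translation initiation factor related to eIF4G, with the tamoxifen-activated recombinase CreER in mouse intestine, and treated organoids with A-485, which blocks the acetyltransferase activity of the histone-modifying enzymes p300 and CBP. RNA-seq of 92 libraries gave 21 groups, and every group came from animals or cultures that carried a CreER allele.

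Rosa26(CreER), expressed in most cell types, was used for 1 pair of tissue groups treated with tamoxifen (dose not given in the sources used here) and labelled day 9: crypts of 4 Eif4g2(flox/flox) and 5 Eif4g2(flox/+) mice and villi of 5 and 5. Vil1(CreER), active in the intestinal epithelium, was used for the other, labelled 3 months, after tamoxifen at 100 mg/kg on each of 4 days: crypts of 3 flox/flox and 4 flox/+ mice and villi of 6 and 4. A first set of flox/flox Rosa26(CreER) organoids, adult small intestinal epithelium grown in EGF, Noggin and R-spondin medium, had 3 libraries with DMSO and 3 with 0.5 µM 4-hydroxytamoxifen (4-OHT) for 24 h, all at day 6. A second set at day 6, with 4-OHT in every library, had 4 flox/flox, 4 flox/+ and 4 Eif4g2(+/+) libraries. Fetal intestinal spheroids, also Rosa26(CreER) and at day 6, came from 6 flox/flox and 5 flox/+ lines, and every line was grown in DMSO and in 4-OHT. For A-485, 4 organoid lines at day 4 each gave a DMSO library and 1 library at each of 3, 5 and 10 µM. The labels name an animal for each tissue library and a line for each culture library, and 1 flox/flox line served in both the first organoid set and the inhibitor series. Its first line was Eif4g2(+/+), the other 3 were flox/flox, and none received 4-OHT, so Eif4g2 was not deleted there.

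S100 proteins are small calcium-binding proteins with a pair of EF-hand helices. Most form dimers, and calcium exposes a surface on which they bind partners such as annexins, cytoskeletal proteins and enzymes. S100g, also called calbindin-D9k, differs in acting as a monomer that carries calcium through the cytosol of villus enterocytes, and its gene is a known target of the vitamin D receptor. In intestinal epithelium S100a6 is known as a marker of fetal and regenerating tissue. S100a8 and S100a9, which are not members of this group of 9, are abundant in neutrophils.

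In GRCm38, 6 members lie in 113.1 kb of chromosome 3 from 90511034 to 90624181, which holds 9 S100 genes in all: S100a1 on the minus strand, then S100a13, S100a14, S100a16, S100a4 and S100a6 on the plus strand. S100a11 (93520488 to 93526287) and S100a10 (93555080 to 93564643), both on the plus strand of chromosome 3, lie 28792 bases apart and 2824766 bases or more from that cluster. S100g lies on chromosome X (162961992 to 162964599, minus strand). The start regions of 3 members that the results turn on, and the 42 bases between the divergent models of S100a1 and S100a13, are printed because S100a6 and S100a11 changed together, S100g moved the other way in several groups, and S100a1 and S100a13 had similar profiles. The sequences are from RefSeq on GRCm38.p6, in which 7 of the 9 members had an entry (S100a10 and S100a14 did not), and only bases before the GENCODE vM21 gene model are shown. Capitals mark matches to 4 motifs searched on both strands. The TATA box was searched as TATAAA. The AP-1 site was searched as TGANTCA. The TEAD site was searched as GGAATG. The nuclear receptor element was searched as AGGTCA.
S100a6 start region, chr3:90612644-90612881, plus strand: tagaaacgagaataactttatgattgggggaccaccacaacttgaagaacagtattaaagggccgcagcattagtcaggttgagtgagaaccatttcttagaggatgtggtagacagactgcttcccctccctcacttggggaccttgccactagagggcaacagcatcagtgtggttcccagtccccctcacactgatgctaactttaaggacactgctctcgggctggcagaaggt
S100a11 start region, chr3:93520246-93520487, plus strand: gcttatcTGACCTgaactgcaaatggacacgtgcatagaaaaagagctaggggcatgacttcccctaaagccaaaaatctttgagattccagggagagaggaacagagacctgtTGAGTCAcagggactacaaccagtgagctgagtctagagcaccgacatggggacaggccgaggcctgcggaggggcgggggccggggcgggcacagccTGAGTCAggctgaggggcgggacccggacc
S100g start region, chrX:162964600-162964849, minus strand: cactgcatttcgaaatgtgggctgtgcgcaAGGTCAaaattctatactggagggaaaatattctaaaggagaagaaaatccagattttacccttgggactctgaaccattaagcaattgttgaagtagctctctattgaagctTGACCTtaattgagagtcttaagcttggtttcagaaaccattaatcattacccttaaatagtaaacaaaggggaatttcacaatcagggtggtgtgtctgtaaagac
S100a1 to S100a13 interval, chr3:90514393-90514434, plus strand: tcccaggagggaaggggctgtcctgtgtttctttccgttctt

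The S100a11 region held 2 matches to TGANTCA, beginning 128 and 30 bases before the first base of the gene model, and 1 reverse-strand match to AGGTCA. The motif TGANTCA occurred in 6.64% and AGGTCA in 13.6% of 32851 RefSeq promoter windows cut to the same 242 bases. The S100g region held 2 matches to AGGTCA, 1 on each strand, and 14% of windows of 250 bases held at least 1. The S100a6 region and the interval of 42 bases held no match to any of the 4 motifs, which says only that these letters are not in those windows.

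Library totals ran from 8652040 to 37611126 counts, the lowest being in the A-485 series. Eif4g2 did not overlap between groups with both copies deleted and their controls: for example, it had 86.5 ± 14.2 CPM in flox/flox (SD, n = 4) and 356 ± 9.02 CPM in flox/+ Rosa26 crypts (SD, n = 5), and 236 ± 7.08 CPM (SD, n = 3) and 490 ± 10.1 CPM (SD, n = 4) in Vil1 crypts. CPM here are read counts scaled to library size by TMM within each of 6 sets of libraries, so levels are compared within a set. Crypt libraries held the Paneth markers (12000 to 16400 CPM summed over 5 genes in flox/+ Rosa26 crypts against 98.8 to 160 CPM in villi), and villus libraries the enterocyte markers (50500 to 71100 against 1880 to 3120 CPM over 8 genes). In bulk RNA, fewer cells of a type and less RNA per cell cannot be told apart. Ddx3y, a Y-linked gene, was present in 5 of 5 flox/+ libraries of each Rosa26 tissue but in 1 of 4 flox/flox crypt and 2 of 5 flox/flox villus libraries.

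S100a4, whose product binds non-muscle myosin heavy chains and is known from stromal and immune cells, was almost unread. It had reads in 26 of 92 libraries, at most 16 in any, and passed the filter on low counts in none of the comparisons. By annotation 302 of its 584 exonic bases (51.7%) are shared on the same strand with the read-through model Gm42674, so how its reads were assigned is uncertain. The other 8 members were tested in each of the 21 comparisons, and the counts below are out of those 8.

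Of the 8, the Rosa26 crypt comparison called 5 higher and 1 lower in flox/flox libraries at an adjusted p under 0.05 in edgeR's quasi-likelihood test, where 20.2% of all 15846 tested genes were called in either direction. The members' median log2 fold change there was 0.83, against 0.04 over all genes. Vil1 crypts had 5 higher and 0 lower (29.3% of all genes), with a median of 1.13 against 0.01. Rosa26 villi had 3 higher and 1 lower (33.2% of all genes; median 0.35 against -0.01) and Vil1 villi 3 higher and 0 lower (42.5% of all genes; median 0.17 against 0.05). The first organoid set had 5 higher and 0 lower (35.4% of all genes; median 0.64 against 0.03). In the second set 4 were higher and 1 lower in flox/flox than in flox/+ organoids (46.8% of all genes), and 3 higher and 1 lower than in +/+ organoids (45.3%). Those comparisons share the flox/flox libraries. Between flox/+ and +/+ organoids edgeR called 0 members (0.113% of all genes), and 0 had an unadjusted p under 0.05.

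S100a6, also called calcyclin, which binds the ubiquitin ligase adaptor Cacybp and the co-chaperone Sugt1, was the member with the highest fold change in Vil1 crypts. There it had 2.11, 2.90, 2.64 and 1.84 CPM in the 4 flox/+ libraries and 170.2, 129 and 132 CPM in the 3 flox/flox libraries. The groups lay far apart, at 2.37 ± 0.481 (SD, n = 4) and 144 ± 22.9 CPM (SD, n = 3), a log2 fold change of 5.99 ± 0.21 (SE; edgeR adjusted p 1.17e-05). In Vil1 villi the flox/+ libraries had 29.7, 30.3, 25.9 and 22.4 CPM, and the 6 flox/flox libraries ran from 133 CPM over a median of 154 to 224 CPM. These did not overlap either, and the fold change was 2.60 ± 0.17 (SE; edgeR adjusted p 1.85e-07).

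In flox/+ mice S100a6 was lower in crypts than in villi with both drivers. Among the 8, 1 was higher and 6 lower in Vil1 crypts than villi (67.9% of all genes called), and 1 higher and 4 lower in Rosa26 (77.1%). In flox/+ Vil1 mice S100a6 was a villus gene, with crypts 3.53 ± 0.20 lower on the log2 scale (SE; edgeR adjusted p 2.65e-07, lower in crypts in 4 of 4 mice). In Rosa26 the difference was -0.99 ± 0.33 (SE; edgeR adjusted p 0.0183, 5 of 5 mice), the groups overlapped, and the call was lost without the villus library of replicate 3 (-0.76, 0.0733) and without the filter on low counts (0.0896). In flox/flox mice the order of crypt and villus could not be read, since the libraries of both tissues overlapped at 144 ± 22.9 (SD, n = 3) and 166 ± 33.5 CPM (SD, n = 6). The effect of genotype differed between the tissues, being 3.36 ± 0.26 smaller in villi on the log2 scale (SE; interaction in edgeR, adjusted p 2.03e-06). That interaction was called for 3 of 8 members, 1 higher and 2 lower (15.5% of all genes). Crypts and villi came from the same mice, and a fit with the animal as a block, chosen after the data were seen and limited to the 7 mice with both tissues, called 4 (12.8% of all genes) and gave -3.21 ± 0.18 for S100a6 (SE; edgeR adjusted p 7.44e-05).

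Rosa26 crypts had 13.4, 9.71, 25.8, 19.8 and 7.25 CPM of S100a6 in flox/+ and 149.8, 237, 96.3 and 38.1 CPM in flox/flox libraries. The lowest flox/flox crypt library lay above the highest flox/+ library, and the log2 fold change was 3.19 ± 0.57 (SE; edgeR adjusted p 0.00573). Rosa26 villi had 21.1, 31.5, 41.6, 23.5 and 26.1 CPM in flox/+ and 71.6, 127, 132.5, 43.2 and 46.8 CPM in flox/flox libraries, again without overlap (1.46 ± 0.35, SE; edgeR adjusted p 0.00992). The difference of the genotype effect between Rosa26 villi and crypts was -1.59 ± 0.64 (SE; edgeR adjusted p 0.11), and -1.90 (0.0301) without the flox/flox crypt library of replicate 5. That library had the lowest S100a6 of its group, 38.1 CPM. The edgeR fits with Ddx3y presence as a covariate gave 3.39 ± 0.79 in crypts (SE; adjusted p 0.0247) and 1.71 ± 0.43 in villi (SE; adjusted p 0.0224). The interaction was called for 0 of 8 members in Rosa26 tissue (11.5% of all genes), with 3 at an unadjusted p under 0.05. With the animal as a block, in the 9 Rosa26 mice with both tissues, it was called for S100a6 alone (-1.75 ± 0.40, SE; edgeR adjusted p 0.0402), where 4.67% of all genes were called.

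Immune marker sums overlapped between the genotypes in Rosa26 crypts. The summed level of the 15 listed genes was 158 to 493.4 CPM in flox/+ libraries, with Ly6g at 0 in that group. It was 683.5, 1262, 1975 and 101 CPM in flox/flox libraries in the order of the S100a6 values above. Of 14 tested immune genes 2 were called higher, S100a8 and S100a9, and 0 lower (20.2% of all genes called). Their median log2 fold change was 1.74 over the 14. The flox/flox library with 101 CPM of immune markers had 38.1 CPM of S100a6, above the 25.8 CPM of the highest flox/+ library. The stromal sum over 12 genes was 52 to 1080 CPM in flox/+ and 57.8 to 2480 CPM in flox/flox crypts. In the organoid and A-485 sets the immune sum stayed between 0 and 13.8 CPM. In Vil1 crypts it was 103 to 564 CPM in flox/+ and 450 to 567 CPM in flox/flox libraries. Of 12 tested immune genes there, 4 were called higher and 1 lower (29.3% of all genes called). In Vil1 villi, by contrast, the immune sum was 299 to 530 CPM in flox/+ and 71.6 to 241 CPM in flox/flox libraries and the stromal sum 12.4 to 16.8 and 20.4 to 38.5 CPM, neither with overlap. In Rosa26 villi both sums overlapped between the genotypes, though 5 of 14 tested immune genes were called lower (33.2% of all genes called). The sum over 6 enteroendocrine genes was 325 to 567 CPM in flox/+ and 49.9 to 291 CPM in flox/flox Rosa26 villi. That over 5 tuft cell genes was 62.4 to 317 and 17 to 60.6 CPM. In each of the tissue comparisons the called enteroendocrine and tuft genes were all lower. Stem cell and Paneth sums were lower in flox/flox crypts of both drivers, without overlap. The sum over 7 stem cell genes was 4540 to 7760 CPM in flox/+ and 375 to 1310 CPM in flox/flox Rosa26 crypts, and 5910 to 6800 and 640 to 986 CPM in Vil1 crypts. The Paneth sum was 1640 to 7450 CPM in flox/flox Rosa26 crypts against the level given above, and 2600 to 5680 and 336 to 832 CPM in Vil1 crypts. In Vil1 villi the sum over 6 goblet cell genes was 9280 to 14800 CPM in flox/+ and 1500 to 2660 CPM in flox/flox libraries. Mitochondrial genes took 13.7% to 25.2% of counts in flox/flox and 6.24% to 12.4% in flox/+ Rosa26 crypts, and 30.4% to 40.3% and 17.5% to 30.8% in Vil1 crypts. The part of these in the results for S100a6 and the other members was not tested.

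Flox/flox organoids given 4-OHT changed in the same direction as flox/flox tissue. The first organoid set had no flox/+ or +/+ library with 4-OHT, so deletion and 4-OHT itself cannot be told apart there. In the first organoid set S100a6 had 212, 229.9 and 162 CPM with DMSO and 1316, 1079 and 981 CPM with 4-OHT. Each of the 3 lines was higher with 4-OHT, by 4.69 to 6.20 times (log2 fold change 2.47 ± 0.17, SE; edgeR adjusted p 0.000263). In the second set the flox/+ libraries were close to each other, at 46.9, 49.95, 56.2 and 40.6 CPM, while the +/+ libraries spread over 185.9, 107, 66.6 and 31.0 CPM. The flox/flox libraries had 158, 214, 387 and 341 CPM. They were above all flox/+ libraries (2.51 ± 0.51, SE; edgeR adjusted p 0.00285) but overlapped the +/+ group (1.501 ± 0.49, SE; adjusted p 0.0314). The latter call was lost without either of 2 flox/flox libraries (replicate 3, adjusted p 0.0822, and replicate 4, 0.0702) or either of 2 +/+ libraries (replicate 2, 0.0614, and replicate 3, 0.0773). Flox/+ and +/+ organoids did not separate (-1.01 ± 0.50, SE; edgeR adjusted p 0.523). In the first set the stem cell sum was 2060 to 2390 CPM with DMSO and 700 to 768 CPM with 4-OHT. The Paneth sum was 1340 to 1540 and 162 to 336 CPM, and the goblet sum 5510 to 6280 and 817 to 2590 CPM. In flox/flox, flox/+ and +/+ libraries of the second set stem cell sums were 2710 to 4000, 7630 to 10100 and 8240 to 10200 CPM. Paneth sums there were 1070 to 1390, 3240 to 4430 and 3910 to 4370 CPM. Their part in the members' values was not tested.

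**Figure D1:**
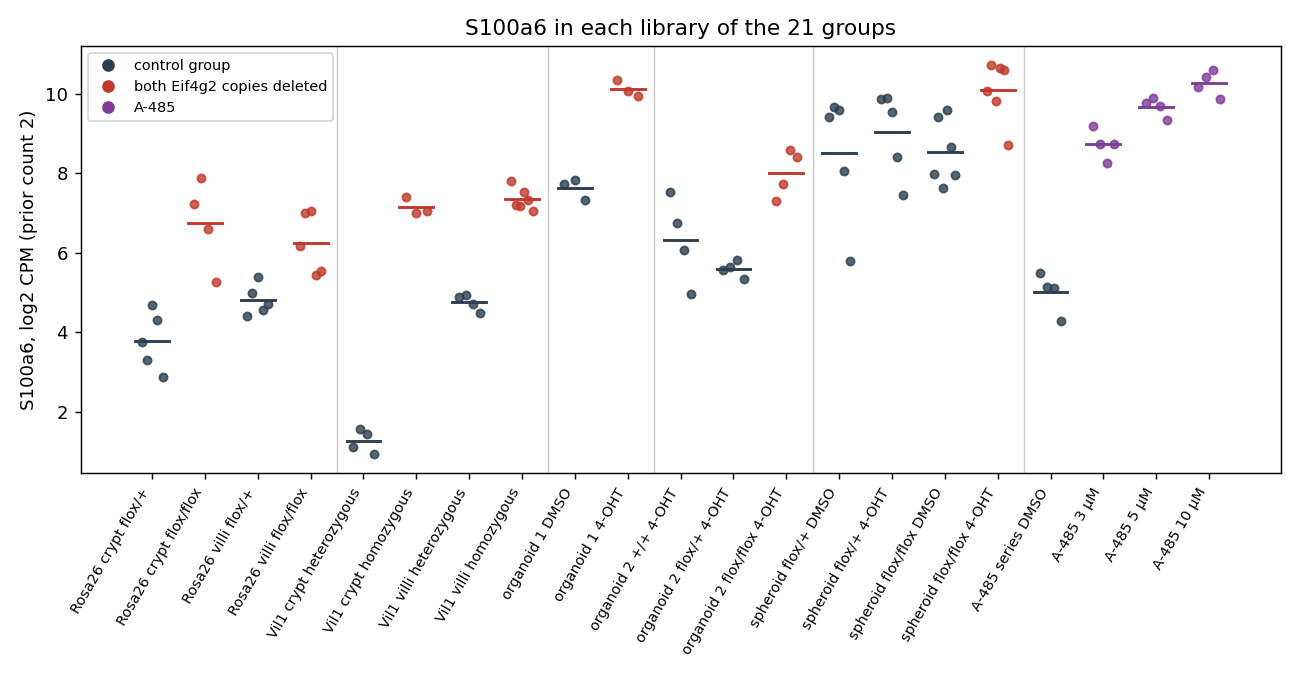
S100a6 in every library of the 21 groups, on the vertical axis in log2 CPM with a prior count of 2. Points are libraries, horizontal bars are group means, grey lines separate the 6 sets that were scaled apart, and colours mark control groups, groups with both copies of Eif4g2 deleted, and A-485. In the tissue sets and the first organoid set the red groups lie above their controls without overlap, and the Vil1 flox/+ crypts, labelled heterozygous, hold the lowest levels of the gene.

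S100a14, S100a11 and S100a16 were called higher in crypts of both drivers and in the first organoid set with S100a6. S100a11 is an annexin A1 partner of epithelial cells, and S100a14 and S100a16 are epithelial members whose genes are next to each other in the cluster. S100a14 had 1.49, 2.03, 2.33 and 1.14 CPM in flox/+ and 18.4, 14.8 and 14.5 CPM in flox/flox Vil1 crypts, without overlap (3.24 ± 0.27, SE; edgeR adjusted p 0.000155). In Vil1 villi it had 7.99 ± 3.57 (SD, n = 4) and 10.8 ± 2.3 CPM (SD, n = 6), which overlapped (0.43 ± 0.27, SE; edgeR adjusted p 0.221). The genotype effect was 2.79 ± 0.42 smaller in villi than in crypts (SE; interaction in edgeR, adjusted p 0.000881).

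In Rosa26 crypts S100a14 had 4.79, 1.61, 3.03, 3.69 and 3.06 CPM in flox/+ and 9.83, 15.5, 5.93 and 6.11 CPM in flox/flox libraries (1.61 ± 0.39, SE; edgeR adjusted p 0.0196). The groups did not overlap, but the adjusted p was 0.0880 with the Ddx3y covariate and 0.0519 without the flox/+ library of replicate 5. In Rosa26 villi its value was 0.14 ± 0.36 (SE; edgeR adjusted p 0.806). The first organoid set had 44.1, 52.3 and 25.0 CPM with DMSO and 205, 199 and 112 CPM with 4-OHT, a rise in 3 of 3 lines (2.07 ± 0.32, SE; edgeR adjusted p 0.00307). In the second set the flox/flox libraries, at 67.3, 77.0, 80.7 and 88.3 CPM, lay above those of flox/+ (28.7 to 40.4 CPM) and of +/+ (30.0 to 48.0 CPM), with edgeR adjusted p 4.43e-05 and 0.000139.

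S100a11 rose in Vil1 crypts from 15.6 ± 1.11 (SD, n = 4) to 77.7 ± 8.42 CPM (SD, n = 3), with no overlap (2.38 ± 0.11, SE; edgeR adjusted p 1.72e-05). It also rose in Vil1 villi, from 25.6 ± 11.9 (SD, n = 4) to 73.2 ± 21 CPM (SD, n = 6; 1.503 ± 0.35, SE; edgeR adjusted p 0.00488). Rosa26 crypts had 39.6, 28.4, 38.0, 40.9 and 26.2 CPM in flox/+ and 77.3, 108, 74.1 and 38.2 CPM in flox/flox libraries, which overlapped through the last of these (1.19 ± 0.30, SE; edgeR adjusted p 0.0231). That call was lost with the Ddx3y covariate (adjusted p 0.109) and without flox/flox replicate 3 (0.0551), flox/+ replicate 2 (0.0604) or flox/+ replicate 5 (0.0575). In Rosa26 villi the fold change was 0.65 ± 0.26 (SE; edgeR adjusted p 0.0726), and 0.93 (adjusted p 0.00717) without the flox/+ library of replicate 3 or 0.79 (0.0278) without the flox/flox library of replicate 5. The first organoid set had 180 ± 41.9 CPM with DMSO and 420 ± 82.1 CPM with 4-OHT (SD, n = 3 each), a rise of 2.07 to 2.60 times within the lines (edgeR adjusted p 0.00429). In the second set it missed the threshold against flox/+ (0.60 ± 0.23, SE; adjusted p 0.0555, or 0.72 and 0.0286 without flox/flox replicate 1) and against +/+ (0.39 ± 0.23, SE; 0.200).

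S100a16 differed from these in being higher in crypts than in villi of flox/+ mice, in 5 of 5 Rosa26 mice (1.23 ± 0.11, SE; edgeR adjusted p 7.17e-07) and 4 of 4 Vil1 mice (1.14 ± 0.16, SE; 9.32e-05). It was also the member called higher in all 4 tissue comparisons together with S100a6. Vil1 villi had 8.77, 10.2, 8.26 and 6.72 CPM in flox/+ libraries, and the 6 flox/flox libraries ran from 46.7 over a median of 48.2 to 57.5 CPM. The groups lay apart, with a log2 fold change of 2.53 ± 0.14 (SE; edgeR adjusted p 3.39e-08). Vil1 crypts had 19.1 ± 2.51 (SD, n = 4) and 50.6 ± 3.53 CPM (SD, n = 3; 1.48 ± 0.11, SE; edgeR adjusted p 0.000113). The genotype effect was thus 1.08 ± 0.18 larger in villi on the log2 scale (SE; interaction in edgeR, adjusted p 0.00141), opposite in sign to the differences of S100a6 and S100a14. In flox/flox Vil1 mice the crypt and villus libraries overlapped.

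Rosa26 villi had 11.2, 13.2, 14.8, 13.5 and 10.95 CPM of S100a16 in flox/+ and 40.0, 43.4, 48.0, 25.6 and 23.3 CPM in flox/flox libraries (1.42 ± 0.20, SE; edgeR adjusted p 0.000502). Rosa26 crypts had 31.2 ± 3.63 (SD, n = 5) and 53.2 ± 8.41 CPM (SD, n = 4; 0.84 ± 0.14, SE; edgeR adjusted p 0.00376). Neither pair of groups overlapped, and the interaction of 0.69 ± 0.26 (SE) missed the threshold (edgeR adjusted p 0.0835, and 0.0915 with the animal as a block). It passed without the flox/flox villus library of replicate 4 (0.79, adjusted p 0.0486) or 5 (0.82, 0.0262). In culture the changes were smaller but the spread was narrow: 49.4 ± 2.9 and 86.5 ± 3.68 CPM in the first organoid set (SD, n = 3 each; 0.80 ± 0.08, SE; edgeR adjusted p 0.000731), and 68 ± 3.48 CPM in flox/flox against 43.7 ± 2.57 in flox/+ and 40.1 ± 6.98 CPM in +/+ organoids (SD, n = 4 each; adjusted p 8.61e-05 and 1.96e-05).

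S100a10 was called in Vil1 crypts and in the second organoid set against flox/+, S100a1 in both Rosa26 tissues, and S100a13 in the first organoid set. S100a10, or p11, does not bind calcium and forms a tetramer with annexin A2 under the plasma membrane. It was lower in crypts than in villi of flox/+ mice with both drivers (-1.31 ± 0.14, SE, edgeR adjusted p 3.69e-06 in Rosa26; -2.14 ± 0.15, SE, 8.75e-07 in Vil1). Vil1 crypts had 73.9, 76.0, 86.3 and 84.3 CPM in flox/+ and 135, 117 and 142 CPM in flox/flox libraries, which did not overlap (0.78 ± 0.10, SE; edgeR adjusted p 0.000939). In Vil1 villi the groups overlapped at 346 ± 63.3 (SD, n = 4) and 328 ± 94.4 CPM (SD, n = 6; adjusted p 0.767), and the interaction was -0.84 ± 0.29 (SE; edgeR adjusted p 0.0544). That interaction passed with the animal as a block (-0.89 ± 0.24, SE; 0.0389), and without villus libraries flox/+ replicate 4 (-0.93, adjusted p 0.0390), flox/flox replicate 1 (-0.91, 0.0247) or flox/flox replicate 5 (-0.96, 0.0129). Both Rosa26 tissues missed the threshold, at 0.51 ± 0.23 in crypts (SE; edgeR adjusted p 0.142, or 0.68 and 0.0259 without flox/flox replicate 5) and 0.15 ± 0.17 in villi (SE; 0.537). The flox/flox organoids of the second set were above the flox/+ ones (161 ± 20 against 133 ± 2.4 CPM, SD, n = 4 each; 0.28 ± 0.08, SE; edgeR adjusted p 0.00917). Against +/+ they overlapped and missed the threshold (0.19 ± 0.08, SE; edgeR adjusted p 0.0695), as did 4-OHT in the first set (0.33 ± 0.13, SE; 0.0807), whose groups did not overlap.

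S100a1, best known from heart muscle, where it acts on calcium cycling, rose in Rosa26 crypts from 11.3 ± 2 (SD, n = 5) to 19 ± 1.02 CPM (SD, n = 4) without overlap (0.81 ± 0.15, SE; edgeR adjusted p 0.00578). Rosa26 villi had 21.9 ± 2.09 and 29.7 ± 6 CPM (SD, n = 5 each), which overlapped (0.37 ± 0.13, SE; edgeR adjusted p 0.0499). That call was lost without 7 of the 10 libraries taken out in turn, with adjusted p up to 0.105. In Vil1 tissue and both organoid sets S100a1 did not pass the threshold, with log2 fold changes from -0.24 to 0.21 in flox/flox libraries. S100a13, which takes part in the non-classical release of Fgf1 and Il1a, rose in the first organoid set from 7.84 ± 0.733 to 11.1 ± 1.44 CPM (SD, n = 3 each; 0.49 ± 0.15, SE; edgeR adjusted p 0.0407). Leaving out 5 of the 6 libraries one at a time lost that call (adjusted p up to 0.139). In Rosa26 crypts S100a13 had 8.18, 8.30, 8.98 and 3.23 CPM in flox/flox and 3.09 to 5.15 CPM in flox/+ libraries (0.80 ± 0.32, SE; edgeR adjusted p 0.100), and 1.06 (0.00418) without the library at 3.23 CPM, replicate 5.

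S100g went the other way. In flox/+ Rosa26 mice it was a villus gene, at 572, 934, 527, 877 and 334 CPM in villi against 36.5, 24.0, 3.14, 17.6 and 3.49 CPM in crypts, with 0.00596 to 0.0639 of the villus level in the crypts of the same mouse (-5.32 ± 0.71, SE; edgeR adjusted p 2.91e-05). In flox/flox villi it had 93.8, 35.6, 19.99, 52.4 and 10.9 CPM. The groups did not overlap, and the log2 fold change was -3.98 ± 0.58 (SE; edgeR adjusted p 0.000983), or -3.37 ± 0.74 (SE; 0.0135) with the Ddx3y covariate. The summed enterocyte markers were 50500 to 71100 CPM in flox/+ and 41800 to 71800 CPM in flox/flox Rosa26 villi. In crypts the flox/flox libraries had 4.70, 1.59, 0.631 and 1.17 CPM and overlapped the flox/+ group (-3.00 ± 0.90, SE; edgeR adjusted p 0.0449). That call was lost with the Ddx3y covariate (-1.75, adjusted p 0.421), without the filter on low counts (0.113) and without any of 3 of the 4 flox/flox libraries (replicate 3, 0.0989; replicate 4, 0.0953; replicate 5, 0.0673) or 3 of the 5 flox/+ libraries (replicate 1, 0.0938; replicate 2, 0.0909; replicate 4, 0.0716).

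Vil1 tissue held little S100g. Flox/+ villi had 0.753, 2.74, 0.727 and 0.923 CPM and flox/flox villi 0.500 to 1.78 CPM, which overlapped (-0.38 ± 0.45, SE; edgeR adjusted p 0.520). Crypts had 0.451 ± 0.202 (SD, n = 4) and 0.113 ± 0.0704 CPM (SD, n = 3; -1.84 ± 0.64, SE; edgeR adjusted p 0.0620, or -2.11 and 0.0333 without flox/+ replicate 1). The enterocyte sum in flox/+ Vil1 villi was 35300 to 43600 CPM. Which stretch of the intestine was sampled is not given in the sources used here, and the 2 tissue sets were scaled apart and differ in driver and time, so the gap in S100g between them has no test.

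In organoids S100g had 7.44, 11.6 and 14.8 CPM with DMSO and 17.5, 8.62 and 3.39 CPM with 4-OHT in the first set, which overlapped (-0.21 ± 0.54, SE; edgeR adjusted p 0.798). In the second set the flox/flox libraries, at 2.34, 2.45, 3.01 and 2.90 CPM, were below those of flox/+ (13.2, 9.23, 8.86 and 5.41 CPM) and of +/+ (11.6, 12.8, 9.35 and 7.54 CPM). Both differences passed the test (-1.76 ± 0.25, SE, edgeR adjusted p 5e-05; -1.94 ± 0.25, SE, 2.13e-05). The organoid sets therefore gave different calls for S100g, and the difference between the sets was not tested. The enterocyte sum was 10900 to 15100 CPM with DMSO and 4680 to 7000 CPM with 4-OHT in the first set. In the second set it overlapped, at 4370 to 7580 CPM in flox/flox, 4420 to 9210 CPM in flox/+ and 5650 to 9440 CPM in +/+ libraries. The part of these markers in the S100g values was not tested.

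**Figure D2:**
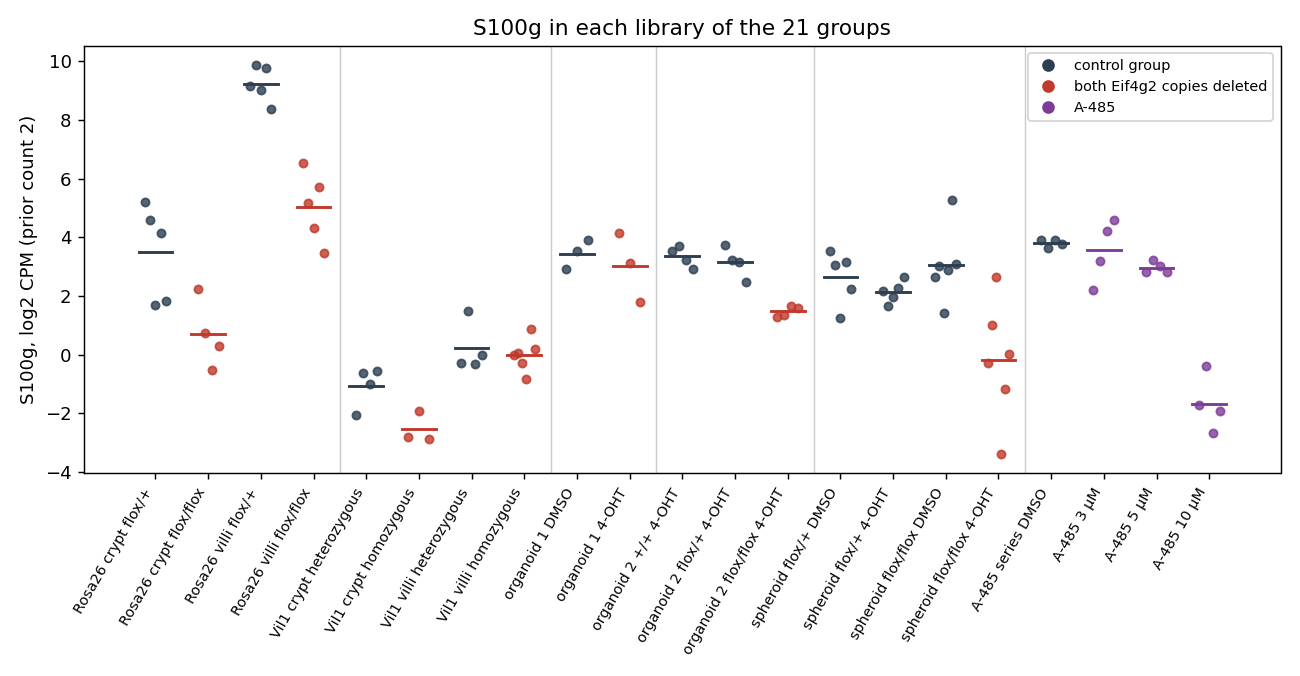
S100g in every library of the 21 groups, on the vertical axis in log2 CPM with a prior count of 2. Points are libraries, horizontal bars group means and grey lines the borders of the 6 sets scaled apart. The Rosa26 flox/+ villi stand highest, the Vil1 groups lie low with either genotype, and the 4 libraries at 10 µM A-485 lie below the other libraries of their set.

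A-485 raised 7 of the 8 tested members at 5 and at 10 µM. At 3 µM edgeR called 6 higher and 0 lower (19.2% of all 13724 tested genes were called in either direction), at 5 µM 7 and 0 (49.6%) and at 10 µM 7 and 1 (62%). The members' median log2 fold changes were 1.46, 2.47 and 2.99, against 0.00, -0.02 and -0.05 over all genes. The 3 comparisons share the DMSO libraries, so each dose's values are given side by side. S100a6 had 44.4, 34.8, 34.5 and 19.4 CPM with DMSO, 582, 426, 305 and 429 CPM at 3 µM, 870.1, 962, 834 and 647 CPM at 5 µM and 1166, 1378, 1548 and 939 CPM at 10 µM. In each of the 4 lines it was higher at 3 µM than with DMSO, at 5 than at 3 µM and at 10 than at 5 µM. Its log2 fold changes were 3.72 ± 0.24, 4.64 ± 0.25 and 5.24 ± 0.26 (SE; edgeR adjusted p 2.59e-08, 5.26e-10 and 4.74e-11). Cell type sums shifted in the same libraries. With DMSO and at 10 µM the stem cell sum was 8280 to 9780 and 596 to 657 CPM. The Paneth sum was 3400 to 5360 and 13 to 27.2 CPM. Goblet markers summed to 4090 to 6050 CPM with DMSO, 6360 to 14000 CPM at 3 µM and 220 to 539 CPM at 10 µM. A list of 10 epithelial genes had 8840 to 9530 CPM with DMSO and 16400 to 20700 CPM at 10 µM. Their part in the members' values was not tested.

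S100a11 had 169 ± 33.1, 483 ± 126, 824 ± 87.4 and 1350 ± 47.3 CPM from DMSO to 10 µM (SD, n = 4 each; log2 fold changes 1.52, 2.29 and 3.00). S100a16 went over the same doses from 48 ± 12.2 to 105 ± 45.4, 240 ± 36.2 and 352 ± 64.3 CPM (SD, n = 4 each), and S100a14 from 23.1 ± 9.42 to 76.3 ± 37.4, 143 ± 52.1 and 183 ± 69.2 CPM (SD, n = 4 each). Each of these 3 genes stepped up at each dose in 4 of 4 lines, and each passed edgeR's test at each dose (adjusted p of 0.00643 or below). The lines stayed apart in S100a14: at 10 µM the +/+ line had 213 CPM and the 3 flox/flox lines 258.5, 163 and 97.1 CPM.

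S100a1 and S100a10 were called higher at each dose and S100a13 at 5 and 10 µM. S100a1 had 10.3, 9.76, 10.3 and 9.31 CPM with DMSO, 31.6, 21.9, 23.3 and 42.9 CPM at 3 µM, 62.7, 59.1, 76.9 and 63.6 CPM at 5 µM and 92.0, 71.8, 72.8 and 82.4 CPM at 10 µM. No treated library overlapped the DMSO libraries, and its log2 fold changes were 1.599 ± 0.18, 2.73 ± 0.19 and 3.01 ± 0.19 (SE; edgeR adjusted p 8.72e-06, 4.25e-09 and 3.45e-10). S100a13 had 5.80, 3.81, 3.66 and 3.33 CPM with DMSO and 19.0, 14.6, 8.19 and 1.61 CPM at 3 µM, where the line of replicate 4 fell below its own DMSO level with 16 reads. With that library the 3 µM value was 1.40 ± 0.49 (SE; edgeR adjusted p 0.0569), and without it 1.75 (0.00150). At 5 and 10 µM all 4 lines were above DMSO, at 29.9 ± 7.57 and 43.4 ± 16.2 CPM (SD, n = 4 each; adjusted p 0.000176 and 2.13e-05). S100a10 had the smallest rise, 148 ± 12.2 CPM with DMSO and 225 ± 65.9 and 303 ± 50.5 CPM at 3 and 5 µM (SD, n = 4 each), and 473, 549, 567 and 353 CPM in the 4 lines at 10 µM (log2 fold changes 0.62, 1.04 and 1.71, edgeR adjusted p 0.0228, 0.000134 and 2.8e-07). Its 3 µM call was lost without the 3 µM library of replicate 1 (adjusted p 0.0621) or 4 (0.0736), or the DMSO library of replicate 2 (0.0572), 3 (0.0721) or 4 (0.0630).

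S100g took another course. It had 14.9, 12.4, 14.9 and 13.5 CPM with DMSO and spread over 4.45, 9.01, 18.6 and 24.2 CPM at 3 µM (0.02 ± 0.44, SE; edgeR adjusted p 0.978). At 5 µM it had 6.84, 9.26, 7.98 and 6.81 CPM, below the DMSO libraries without overlap, though the fit without lines missed the threshold (-0.85 ± 0.44, SE; edgeR adjusted p 0.125). The fit with the line as a block gave -0.83 ± 0.21 (SE; adjusted p 0.00527). At 10 µM it had 0.145, 0.612, 0 and 0.108 CPM, each line at 0.0495 times its DMSO level or less (-5.89 ± 0.62, SE; edgeR adjusted p 2.18e-07). These levels rested on 0 to 9 reads a library. The summed enterocyte markers were 5630 to 11300 CPM with DMSO, 2210 to 5380 CPM at 3 µM, 1760 to 4470 CPM at 5 µM and 85.6 to 405 CPM at 10 µM. Each dose thus lay below DMSO without overlap, also 3 µM, where S100g spread on both sides of its DMSO level. The part of the markers in the fall of S100g was not tested.

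**Figure D3:**
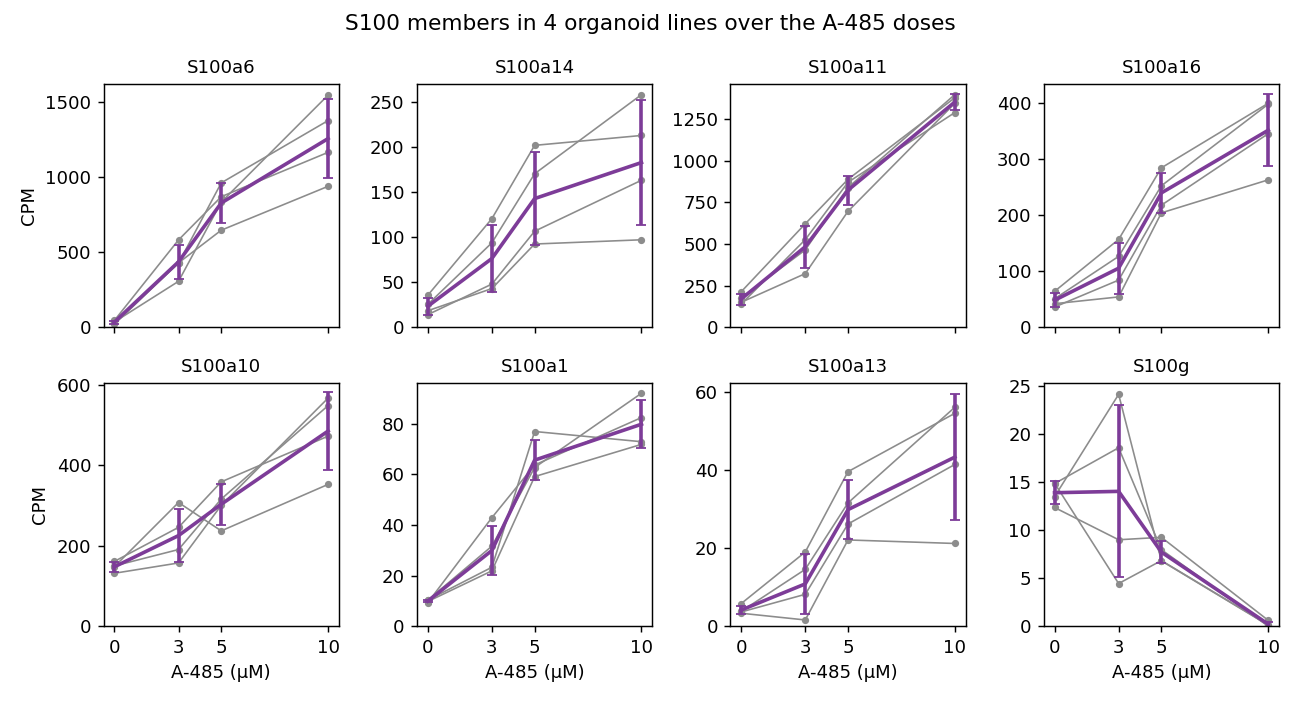
Levels of the 8 tested members in CPM on the vertical axes against the A-485 concentration in µM, where 0 is DMSO. Grey lines and points are the 4 organoid lines, and purple lines give the mean with bars of 1 SD. S100a6 and S100a11 reach 1260 and 1350 CPM on average at 10 µM, while S100g is at 0.612 CPM or less in each line at that dose.

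Fetal spheroids already held more of these genes than adult organoids. Between flox/+ spheroids and flox/+ organoids, both with 4-OHT, 7 of 8 members were called higher in spheroids and S100g lower (47.9% of all 14522 tested genes). S100a6 differed by 3.81 ± 0.51 and S100a14 by 3.22 ± 0.53 on the log2 scale (SE; edgeR adjusted p 0.000393 and 0.00124), and S100g by -0.93 ± 0.28 (SE; 0.0214), a call lost without the flox/+ organoid library of replicate 1 (-0.71, 0.0763). The spheroids and organoids are different lines, so line and origin cannot be told apart there. In the same comparison 4 of 6 tested stromal markers were called higher (sums of 13.2 to 205 CPM in spheroids and 8.44 to 12.1 CPM in organoids), 3 of 4 tested immune markers (6.06 to 55.4 and 4.1 to 5.61 CPM) and 4 of 6 goblet markers (5580 to 7540 and 2010 to 2960 CPM), and 2 of 8 enterocyte markers lower. Their part in the members' values was not tested.

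Within flox/flox spheroids the lines ranged widely. S100a6 had from 199 over a median of 329 to 771.5 CPM with DMSO and from 420 over a median of 1320 to 1689 CPM with 4-OHT. The groups overlapped, but S100a6 was higher with 4-OHT in 6 of 6 lines, by 1.69 to 4.57 times. Without a term for the line the log2 fold change was 1.502 ± 0.54 (SE; edgeR adjusted p 0.0549, and from 0.0401 to 0.0487 without DMSO replicate 2, DMSO replicate 4 or 4-OHT replicate 6), and with the line as a block it was 1.55 ± 0.21 (SE; adjusted p 0.00118). In the fit without the line 0 members were called higher and 1 lower, the latter S100g (19.1% of all 15032 tested genes). With the block 4 were called (34.6% of all 13430 genes tested in that fit), all higher: S100a6, S100a14 (1.30 ± 0.18, SE; adjusted p 0.00127), S100a11 (0.82, 0.0148) and S100a16 (0.70 ± 0.19, SE; 0.0226). S100a14 and S100a11 were higher with 4-OHT in 6 of 6 lines and S100a16 in 5 of 6. S100a1 and S100a13 were lower in 5 of 6 lines and did not pass either fit.

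S100g had 6.16, 8.10, 2.61, 7.38, 38.2 and 8.33 CPM with DMSO and 0.732, 1.93, 6.11, 0, 0.351 and 0.914 CPM with 4-OHT in the 6 flox/flox lines, in the same order. It was lower in 5 of 6 lines (-2.85 ± 0.80, SE; edgeR adjusted p 0.0168). The enterocyte sum in the same order was 9320, 813, 3216, 1012, 8073 and 3324 CPM with DMSO and 2551, 10.8, 6139, 8.61, 74.95 and 214 CPM with 4-OHT. The third line, in which S100g was higher with 4-OHT, was also the line in which the enterocyte sum was higher, and both fell in the other 5. Goblet markers summed to 2760 to 17800 CPM with DMSO and 126 to 1530 CPM with 4-OHT in these lines, and the part of either in the result was not tested. For S100g the block fit gave -3.29 ± 1.22 (SE; adjusted p 0.0785), and the fit without the DMSO library at 38.2 CPM, replicate 5, gave -1.99 (0.0726), so the call did not hold in either. In flox/+ spheroids edgeR, fitted without the line, called 0 members for 4-OHT against DMSO and 0 of all genes (0%). In that fit 0 members had an unadjusted p under 0.05, with S100a6 at 520 ± 340 and 629 ± 352 CPM (SD, n = 5 each). The fit did not use the pairing by line, so small changes within a line could go unseen. Its calls are therefore not like for like with those of the block fit in flox/flox lines. Deviations of the paired flox/+ libraries correlated at 0.626 to 0.857. S100a6 was higher with 4-OHT in 4 of 5 flox/+ lines. S100a14 was higher in 5 of 5, by 1.03 to 1.78 times, and S100a10 in 5 of 5, by 1.01 to 1.23 times. The difference of the 4-OHT effect between the genotypes passed for 0 members without the line (1.62% of all genes), with 0 at an unadjusted p under 0.05. In a fit with the line nested in genotype, chosen after the data were seen, it passed, with 18.3% of all genes, for S100a14 (0.86 ± 0.23, SE; edgeR adjusted p 0.0206) and stood at 1.04 ± 0.34 for S100a6 (SE; 0.0551). Between the genotypes with DMSO, and between them with 4-OHT, edgeR called 0 members (0% and 10.5% of all genes), and 0 had an unadjusted p under 0.05. Without the 4-OHT library of flox/flox replicate 3, S100g was called lower in flox/flox than in flox/+ spheroids (-2.51, adjusted p 0.0398).

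**Figure D4:**
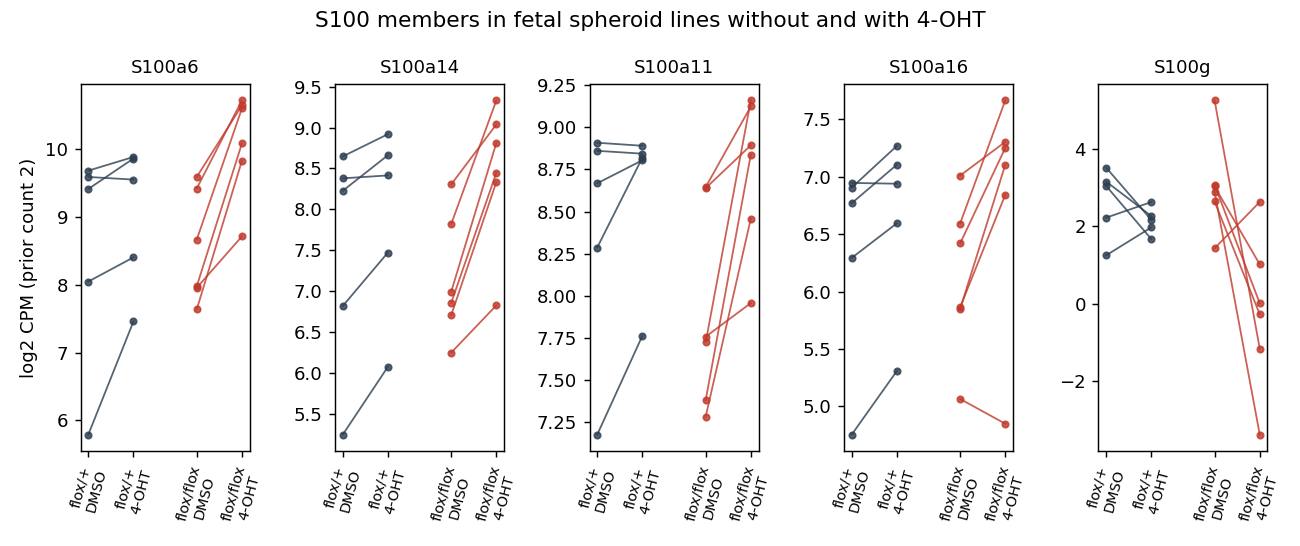
S100a6, S100a14, S100a11, S100a16 and S100g in fetal spheroid lines, in log2 CPM with a prior count of 2 on the vertical axes. Each line joins the DMSO and 4-OHT libraries of 1 spheroid line, with 5 flox/+ lines in dark blue and 6 flox/flox lines in red. All 6 flox/flox lines go up in S100a6, S100a14 and S100a11, and 5 of 6 go down in S100g.

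**Figure D5:**
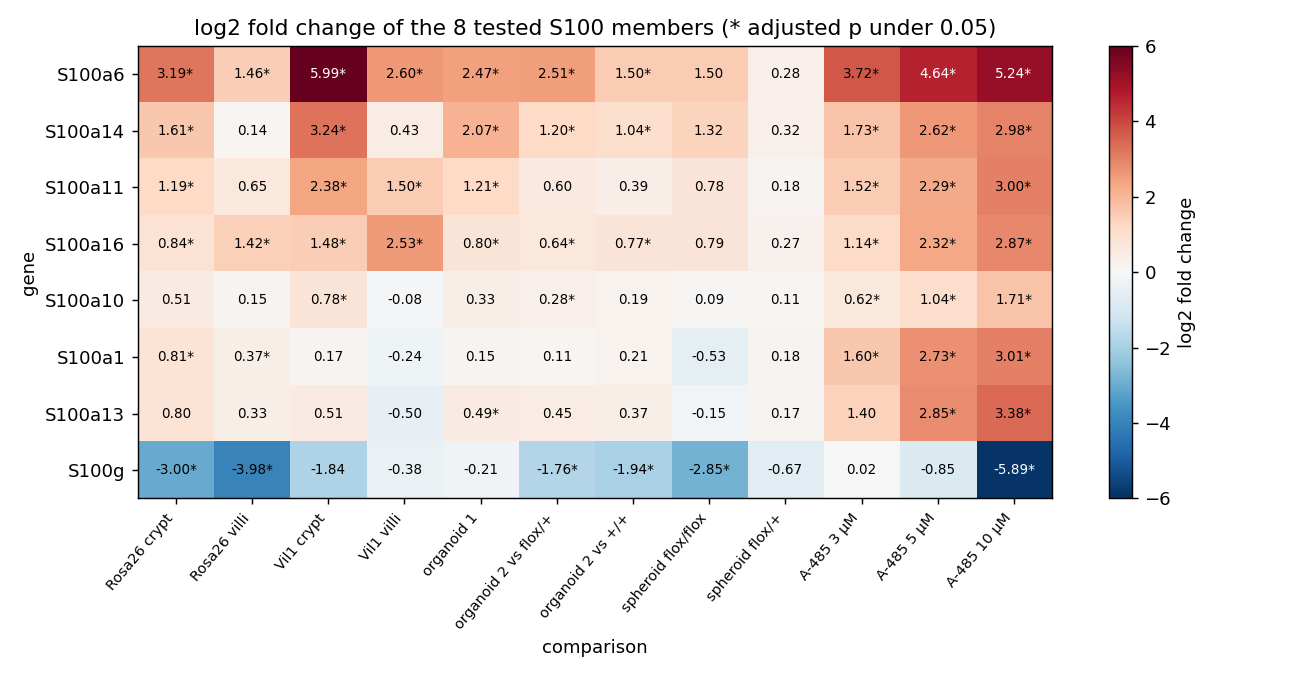
Log2 fold changes of the 8 tested members (rows) in 12 comparisons (columns), as printed in each cell and coloured from -6 (blue) to 6 (red), with an asterisk at an adjusted p under 0.05 in edgeR without a line block. Flox/flox tissue, organoids and spheroids are set against their control group and A-485 against DMSO. The rows from S100a6 to S100a16 are red in most columns, S100a10, S100a1 and S100a13 mainly in the A-485 columns, and S100g is blue in most.

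Per length, on the scale of CPM per kb of exonic sequence, the member with the highest level differed between groups of different sets. Those sets were scaled apart and differ in driver, time, culture or treatment, so the change of order has no test. In flox/+ Rosa26 villi S100g led at 1350 CPM per kb, followed by S100a10 at 243 and S100a11 at 89.3. In flox/+ Vil1 villi S100a10 led at 285 and S100g had 2.68. In flox/flox organoids of the first set S100a6 and S100a11 were level after 4-OHT, at 823 and 822 CPM per kb, where with DMSO they had 147 and 353. At 10 µM A-485 S100a11 led with 2650 and S100a6 followed with 920, while S100a13 had 60.6 and S100g 0.45.

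Over the 21 group means of log2 CPM, centred within each set, the genes most like S100a6 among 8916 candidates were S100a14 (r = 0.957), Capn2 (0.954), the gene of a calpain, and S100a11 (0.940). Those most like S100g were Mtus1 (0.930), Cyp2c65 (0.925) and Slc5a9 (0.918). S100a1 and S100a13, the divergent pair, had r = 0.923. Their centred means ran widest in the A-485 set, from -1.80 to 1.18 and from -1.75 to 1.52. In the other sets they ran from -0.77 to 0.61 and from -0.46 to 0.48. S100a6 had 0.736 with S100a16 and 0.634 with S100a10. The 21 means are not independent, since they were centred within sets and groups of several sets came from the same animals or lines. The correlations carry no test.

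Of the other S100 genes, 8 protein-coding ones outside the 9 were counted. S100a8 and S100a9 rose in Rosa26 flox/flox crypts, to 22.3 ± 22.6 and 32.9 ± 33.2 CPM (SD, n = 4) from 0.85 ± 0.49 and 1.24 ± 0.813 CPM (SD, n = 5; edgeR adjusted p 0.00902 and 0.00979), and both belong to the immune list above. In the first organoid set 2 of 3 tested rose (35.4% of all genes called), in flox/flox spheroids 3 of 4 (19.1%), and in the A-485 series 1, 2 and 1 of 3 by dose (19.2%, 49.6% and 62%), with 1 lower at 10 µM. None was called in 3 or more of 6 deletion comparisons, which were the 4 tissue comparisons, the first organoid set and flox/flox spheroids.

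Among 17 listed S100 partners, called genes went both ways: 3 higher and 2 lower of 13 tested in Rosa26 crypts (20.2% of all genes called), 4 and 1 of 14 in Vil1 crypts (29.3%), 5 and 3 of 14 in the first organoid set (35.4%) and 2 and 4 of 15 in flox/flox spheroids (19.1%). Rosa26 villi had 1 and 2 of 12 (33.2%), Vil1 villi 4 and 3 of 12 (42.5%), and the second organoid set 2 and 4 of 13 against flox/+ (46.8%) and 4 and 3 of 13 against +/+ (45.3%). Of 12 tested with A-485, 4 were higher and 0 lower at 3 µM (19.2%), 4 and 3 at 5 µM (49.6%) and 5 and 4 at 10 µM (62%). Ahnak, the large scaffold protein that binds S100a10 with annexin A2, was called higher in 5 of those 6 deletion comparisons, by 1.77 in Rosa26 crypts, 1.45 in Vil1 crypts, 0.74 in Vil1 villi, 1.72 in organoids and 1.69 in spheroids, and by 4.49 at 10 µM A-485 (log2, edgeR). Anxa2, which codes for annexin A2, rose in Rosa26 crypts (1.07), Vil1 crypts (1.59), the first organoid set (0.72) and flox/flox spheroids (0.81), and at 10 µM A-485 (2.27). Fgf1, the growth factor released with S100a13, fell in 5, with log2 fold changes of -2.62 in Rosa26 villi, -0.79 in Vil1 crypts, -1.39 in Vil1 villi, -1.004 in organoids and -1.26 in spheroids. Anxa6 was called lower in 4, with the lowest value in organoids (-3.34). Sugt1 rose in both crypt comparisons (0.25 and 0.26) and fell in Vil1 villi (-0.35), and Anxa11 fell by 0.31 to 0.40 in 3.

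Of 11 genes of intestinal calcium uptake, which S100g serves, 6 were tested in Rosa26 crypts and 2 were called lower (20.2% of all genes called), and 7 were tested in Rosa26 villi and 2 called lower (33.2%). Vil1 crypts gave 2 higher and 2 lower of 7 (29.3%), Vil1 villi 3 and 2 of 6 (42.5%), the first organoid set 2 and 3 of 6 (35.4%) and flox/flox spheroids 1 and 1 of 6 (19.1%). The second organoid set gave 2 and 3 of 6 against flox/+ (46.8%) and 2 and 2 of 6 against +/+ (45.3%). Of 5 tested with A-485, 1 was higher and 2 lower at 3 µM (19.2%), 2 and 2 at 5 µM (49.6%) and 2 and 3 at 10 µM (62%). Vdr, the vitamin D receptor, was called lower in Rosa26 crypts (-1.10), Rosa26 villi (-0.39), Vil1 crypts (-1.75) and the first organoid set (-0.94), and at 3, 5 and 10 µM A-485 (-0.78, -1.42 and -4.41). Its partner Rxra was lower in Rosa26 villi (-0.64), both Vil1 tissues (-0.67 and -0.73) and the first organoid set (-0.56). Atp2b1, the calcium pump of the basolateral membrane, was higher in both Vil1 tissues (0.44 and 1.12) and the first organoid set (0.53). Of the claudins, Cldn12 was higher in Vil1 villi (0.46), the first organoid set (0.74) and flox/flox spheroids (0.53), and Cldn2 was higher in Vil1 tissue (0.30 and 2.58) and lower in Rosa26 crypts (-0.91) and flox/flox spheroids (-1.12). In the second organoid set, outside those 6 comparisons, Cldn2 was lower in flox/flox than in flox/+ and +/+ organoids (-0.57 and -0.65), Vdr was lower (-0.48 and -0.36), and Cldn12 (0.73 and 0.70) and Atp2b1 (0.45 and 0.40) were higher. All these are log2 fold changes called in edgeR.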

How the data were processed

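RNA was poly(A)-selected and made into dUTP strand-marking libraries, per the labels' protocols. HISAT2 2.0.5 and GRCm38 (mm10) are named in the submitters' processing notes. The counting program, its annotation and its strand setting are not given in the sources used here. The authors deposited raw read counts per gene in 4 tables, with gene names and lengths, and no per-sample column was left unused. Library totals were 8652040 to 37611126 counts. Over 164 pairs of libraries of 1 group, chi-square per degree of freedom was never under 6.26, so no library was counted as a repeat.

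The 9 members, the partner and calcium lists and the tests were chosen with earlier results of these data known. Groups came from the labels. Genes were filtered with filterByExpr, and counts were fitted with TMM scaling in edgeR 4.0.16 (R 4.3.3, limma 3.58.1; glmQLFit and glmQLFTest), with Benjamini-Hochberg adjustment over all genes tested and a threshold of 0.05. Each tissue, the first organoid set and each 2-group comparison was fitted on its own groups, while the second organoid set, the spheroids and the A-485 series were each fitted over all their groups. CPM are counts scaled to library size with TMM within each of 6 sets, and log2 CPM use a prior count of 2. Named list genes are those called in 3 or more of 6 comparisons of deletion of both copies, and similar genes are the 3 with the highest correlation over 21 group means among genes whose log2 CPM averaged 3 or more. The script was tested on simulated data. Alternatives were DESeq2-type size factors, no filter beyond 1 read, DESeq2 1.42.0, a Ddx3y covariate (more than 20 reads), the series of animal numbers as a covariate, a replicate block and leaving out each library. Labels name the same line or animal in DMSO and treated cultures and in crypts and villi of 1 mouse. The deviations of such pairs correlated at 0.385 to 0.783 in flox/flox spheroids and 0.626 to 0.857 in flox/+ spheroids. In the first organoid set they correlated at 0.318 to 0.501.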

Additional observations from a re-analysis of the deposited data

Results flagged for a closer look

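Of 141 combinations of a member and a group of 4 to 10 libraries, 7 held a library far from the others, where chance gives about 1 in 20. In flox/flox spheroids with 4-OHT, replicate 6 had 79.98 CPM of S100a10 (next 259.7 CPM) and replicate 3 had 6.106 CPM of S100g (next 1.927 CPM). In flox/flox spheroids with DMSO, replicate 5 had 38.24 CPM of S100g (next 8.331 CPM). In flox/+ spheroids with 4-OHT, replicate 5 had 217.0 CPM of S100a11 (next 447.0 CPM). In flox/flox Rosa26 crypts, replicate 5 had 3.233 CPM of S100a13 (next 8.177 CPM). In Vil1 villi, flox/flox replicate 4 had 57.47 CPM of S100a16 (next 49.13 CPM) and flox/+ replicate 2 had 2.736 CPM of S100g (next 0.9227 CPM).

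The effect of genotype differed between Vil1 villi and crypts for 3 members in the interaction term of edgeR: S100a6 by -3.36 (adjusted p 2.03e-06), S100a14 by -2.79 (0.000881) and S100a16 by 1.08 (0.00141) on the log2 scale.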

How the results depend on the processing

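Over 2461 values of 168 member results under alternatives, 2331 kept direction and side of the threshold, 49 lost it, 50 gained it and 31 changed sign. The members called in Rosa26 crypts were 3 with the Ddx3y covariate, against 6. In flox/flox spheroids 4 were called with the replicate block by line and 4 by DESeq2, against 1, and 0 to 3 when 1 library was left out. The spheroid interaction, with the block of line nested in genotype chosen after seeing the data, called 1, against 0. The interactions of tissue and genotype with the animal as a block, also chosen after seeing the data, called 1 in Rosa26, against 0, and 4 in Vil1, against 3. Leaving out 1 library gave 0 to 1 in the Rosa26 interaction, 3 to 5 in the Vil1 interaction and 0 to 1 between the spheroid genotypes with 4-OHT. With the block by line S100g at 5 µM A-485 was also called, and the pairing left the counts in the first organoid set (5), Rosa26 crypts against villi (5) and Vil1 crypts against villi (7) as they were. Shared replicate numbers between genotypes name no common animal or line: with them as a block, between spheroid genotypes with DMSO, S100a6 was 0.11 and S100a16 0.0135, both opposite in sign. With that block the counts were 5 in Rosa26 crypts, 5 in Rosa26 villi and 6 and 3 in the second organoid set. S100g at 3 µM A-485 was -0.20 with the block by line. The other sign changes came from leaving out 1 library, in results that were not called. The ranges over left-out libraries were -0.10 to 0.47 for S100a14 in Rosa26 villi, -0.2346 to 0.0229 for S100a10 and -0.65 to 0.29 for S100g in Vil1 villi, -0.91 to 0.21 for S100g in the first organoid set and -0.0234 to 0.1969 for S100a1 against flox/+ organoids. Between flox/+ and +/+ organoids they were -0.1553 to 0.0684 for S100a13 and -0.4067 to 0.0133 for S100g. In flox/flox spheroids S100a10 ran from -0.0715 to 0.2645 and S100a13 from -0.3119 to 0.0258, and in flox/+ spheroids S100a6 from -0.0083 to 0.521, S100a10 from -0.0347 to 0.2703 and S100a11 from -0.0159 to 0.3453. S100a11 between spheroid genotypes with 4-OHT ran from -0.0417 to 0.235, S100g between them with DMSO from -0.11 to 0.9998, S100a10 in the spheroid interaction from -0.18 to 0.16 and S100g at 3 µM A-485 from -0.38 to 0.32. The cause was not tested. Over all genes, calls went from 4504 to 2967 in Rosa26 villi with the Ddx3y covariate, from 2864 to 4649 in flox/flox spheroids with the block by line and from 1577 to 141 between spheroid genotypes with 4-OHT with the replicate-number block. S100a4 (at most 16 reads a library) and S100g in Vil1 tissue (2 to 66 reads) rested on few reads. So did S100g at 10 µM A-485 (0 to 9 reads) and in flox/flox spheroids with 4-OHT (0 to 106 reads). Library totals were 23957033 counts or more in Vil1 tissue, 15013890 or more in spheroids and 8652040 or more in the A-485 series.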
